A study of Homo sapiens with 58 samples.

Results

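Among 151,457 regulatory elements (REs) counted by ATAC-seq in human cranial neural crest cells (CNCCs), 590 lost most of their accessibility when SOX9 was degraded for 48 h. ATAC-seq reads are cuts made by the Tn5 transposase, which enters open chromatin far more often than closed chromatin. The 590 REs were chosen on these measurements. Accessibility was expressed in CPM, the count in an RE scaled to the same total of counts in REs for every sample, and as log2(CPM + 0.5). An RE was taken if its mean over the 7 SOX9-tagged samples without degrader was at least 2 CPM and if its mean log2 difference between 500 and 0 nM of degrader was -2 or lower. The difference between 500 and 0 nM at 48 h is therefore what defines these REs and is given below as a description with no test. The other concentrations, the time course and the untagged cells played no part in the choice and were tested.

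SOX9 is a transcription factor of the SOX family, whose high-mobility-group (HMG) domain enters the minor groove of a short AT-rich core and bends the DNA there. SOX9 and its close relatives SOX8 and SOX10 can also dimerize on inverted cores a few bases apart. In the neural crest SOX9 takes part in specification and migration, and later it directs cartilage formation. Cartilage, glial, melanocyte and neural crest genes were therefore among the lists examined.

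All cells were CNCCs differentiated in vitro from the H9 human embryonic stem cell line and taken at passage 4, so that a single donor genome underlies the data. In SOX9-tagged cells both SOX9 alleles carry FKBP12-F36V, mNeonGreen and V5 at the C terminus, and the small molecule dTAGV-1 brings an E3 ubiquitin ligase to FKBP12-F36V so that the protein is degraded. S9CC13 and S9CC47 are single edited clones, whereas the wild-type (WT) cells are unedited. At 48 h, 42 SOX9-tagged samples had received 0, 0.5, 1.6, 5, 16 or 500 nM dTAGV-1, for which the labels give 100, 77.9, 51.7, 25.8, 8.14 and 0.95% of the SOX9 level. Each concentration held 7 replicates, namely differentiations R6, R10, R13 and R14 of S9CC13 and R5, R6 and R8 of S9CC47. A further 4 WT samples had received 0 or 500 nM for 48 h (differentiations R8 and RSh). A time course of 12 samples held SOX9-tagged and WT cells of differentiations R4 and R5 with vehicle (DMSO) for 24 h, with 500 nM for the last 3 h after 21 h of vehicle, or with 500 nM for 24 h. The titles give clone S9CC13 for all tagged samples of the time course, but the count columns of tagged R5 name S9CC47. Whether the time course holds 1 clone, or both with clone and differentiation coinciding, is thus not settled. Totals in REs were 22.91 to 81.04 M counts per sample (M, mega). Promoter REs of the neural crest genes TWIST1, TFAP2A, NR2F1, NR2F2, PRRX1, SNAI2, MSX1 and ALX4 had means of 12.3 to 77.1 CPM over 11 samples with vehicle or 0 nM (tagged cells of both series and WT cells of the time course), where the highest promoter RE of each gene was taken. On the same measure the stem cell gene POU5F1 stood at 1.19 CPM and LIN28A at 34.4 CPM. The neural genes PAX6, ELAVL3, STMN2 and SOX1 stood at 15.8, 15.2, 2.68 and 2.15 CPM. Whether other cells in the cultures took part in the results was not tested. In bulk ATAC-seq a site open in fewer cells and a site less open in each cell cannot be told apart.

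The DNA of these REs was rich in SOX cores. The central 500 bases of every RE were read from hg38 and searched on both strands for the letters ACAAAG and ACAATG. At least 1 core was present in 87.5% of the 590 REs (95% Wilson interval 84.5 to 89.9%) and in 45.6% of all REs. At least 2 cores were found in 45.9% of these REs and in 14.2% of all REs, and at least 3 in 14.7% and 3.32%. No core was found in 74 of the 590. Among the 2,396 REs with a more moderate loss (a log2 difference between -2 and -1), 74.2% held a core.

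Cores that face each other, one on each strand pointing inward, were rarer and differed more in frequency between these and other REs. An exact pair with 3 to 5 bases between the cores occurred in 41 of the 590 (6.95%, 95% Wilson interval 5.16 to 9.29%), in 2.55% of the REs of moderate loss and in 0.197% of all REs. In 25 of the 41 the gap was 4 bases. Cores pointing away from each other at the same gaps were found in 0 of the 590 and in 0.0733% of all REs, and cores in tandem in 0.169% and 0.172%. The 8 lines below show the exact facing pairs of the REs with the highest accessibility among those 41, read from the plus strand of hg38, with the facing cores in capitals and the gap between them in lower case.
PLEKHB1, chr11:73652530-73652589: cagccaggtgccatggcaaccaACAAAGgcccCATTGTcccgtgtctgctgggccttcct
ST6GALNAC3, chr1:76125558-76125617: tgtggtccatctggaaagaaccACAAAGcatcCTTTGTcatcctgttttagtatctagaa
TENM4, chr11:79120072-79120131: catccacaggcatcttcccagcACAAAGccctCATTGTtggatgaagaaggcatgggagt
LRRC74A, chr14:76830186-76830245: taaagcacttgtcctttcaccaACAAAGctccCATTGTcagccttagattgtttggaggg
BCL11B, chr14:98593560-98593619: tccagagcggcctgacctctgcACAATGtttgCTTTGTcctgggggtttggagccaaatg
DRD2, chr11:113506219-113506278: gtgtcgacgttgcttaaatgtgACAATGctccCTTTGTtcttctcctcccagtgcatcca
NFIX, chr19:13053934-13053993: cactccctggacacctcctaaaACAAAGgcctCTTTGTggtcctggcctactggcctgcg
MARCKSL1, chr1:32338456-32338515: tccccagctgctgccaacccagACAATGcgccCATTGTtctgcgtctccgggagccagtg
Each name is the gene with the nearest annotated start of a protein-coding transcript, and it says nothing of which gene the RE acts on. The RE named for PLEKHB1 lay within 1,000 bases of a transcript start, those of ST6GALNAC3, TENM4, LRRC74A and NFIX lay in introns of these genes, and the other 3 were intergenic. In these 8 pairs the gap was 4 bases while the letters on either side of the pair differed from RE to RE.

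Allowing 1 mismatch in the second core brought many more pairs. Of the 900 cores in the 590 REs, 20.3% had a facing core with at most 1 mismatch exactly 4 bases away, against 10.2% in the REs of moderate loss and 1.96% of the 96,732 cores in all REs. The share was 7.44% at a gap of 3 and 7.89% at a gap of 5 (1.38% and 1.498% in all REs), and it fell to 0.444% at a gap of 0 and 0.556% at a gap of 7. The spacing therefore had 1 peak, at 4 bases, with shoulders of 1 base on either side. By this looser reading 259 of the 590 REs (43.9%) held a facing pair with a gap of 3 to 5 bases, against 21.8% of the REs of moderate loss and 2.82% of all REs. The cores also sat near the middle of the REs, with 39.0% of them within 50 bases of the midpoint (19.2% in all REs) and a median distance of 70 bases (127 in all REs). Most REs were built around a peak summit, which then is the midpoint.

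**Figure D1:**
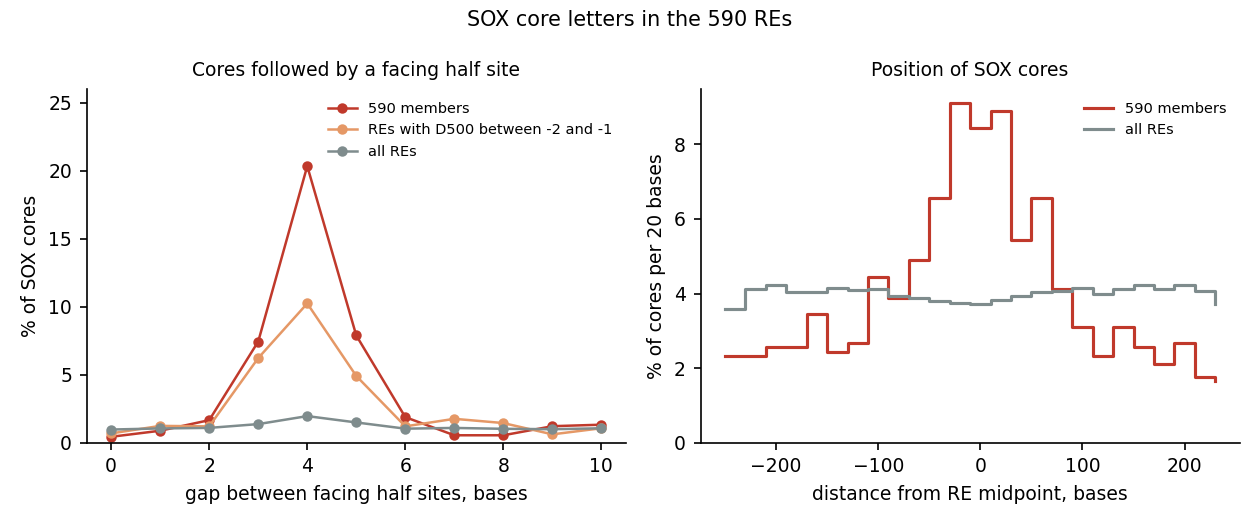
Spacing and position of SOX cores. Left, the percentage of cores with a facing core of at most 1 mismatch (vertical axis) by the gap in bases between the 2 cores (horizontal axis), for the 590 REs (red), the REs of moderate loss (orange, with D500, the log2 difference between 500 and 0 nM, from -2 to -1) and all REs (grey). Right, the percentage of cores in each 20 bases of distance from the RE midpoint. The 590 REs peak at a gap of 4 bases with 20.3% and around the midpoint.

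Of the 5 REs with the lowest log2 difference between 500 and 0 nM, that at PLEKHB1 carried an exact pair, and 3 others are shown next. In DIAPH1 the 1 core faced a core with 1 mismatch at a gap of 3 bases, near AGPAT4 there was a single core, and the RE in an intron of ACTN4 held no core in its central 500 bases. The line for ACTN4 is the 60 bases at the midpoint of that RE.
DIAPH1, chr5:141521502-141521561: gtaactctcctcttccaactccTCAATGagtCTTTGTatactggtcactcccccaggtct
AGPAT4, chr6:161319378-161319437: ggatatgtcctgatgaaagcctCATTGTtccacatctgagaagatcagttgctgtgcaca
ACTN4, chr19:38722157-38722216: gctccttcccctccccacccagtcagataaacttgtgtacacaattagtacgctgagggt

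Letters of other CNCC factors set these REs apart much less. The E-box CATCTG, read by basic helix-loop-helix factors such as TWIST1, occurred in 51.0% of the 590 REs and 41.2% of all REs. The palindrome GCCNNNGGC, read by AP-2 factors such as TFAP2A, occurred in 17.5% and 24.6%. The nuclear receptor letters AGGTCA were found in 37.6% and 33.2%, and the AP-1 letters TGANTCA in 14.4% and 15.0%. A match to letters is not a bound site. The REs lay within 1,000 bases of a transcript start in 12.5% (all REs 24.7%), in introns in 53.2% (40.8%), in exons in 8.47% (6.26%) and between genes in 25.8% (28.3%). Median GC content was 47.4% against 48.2%. Among REs with at least 2 CPM at 0 nM, AP-2 letters occurred in 29.5% and median GC content was 51.8%. Of these REs 35.6% lay near a transcript start and 34.3% in introns. These gaps to the 590 were wider than against all REs. The REs of moderate loss lay closer to the 590 in E-box letters (49.5%), AP-2 letters (21.9%), transcript starts (13.5%) and introns (49.5%). They lay further away in AP-1 letters (15.5%) and between genes (30.2%).

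Levels at 0 and 500 nM were used by the rule, which favours REs with a high level at 0 nM, and are a description. Among the 84,124 REs with at least 2 CPM at 0 nM, the median level at 0 nM was 5.46 CPM. The median mean level over the 7 replicates was 10.5 CPM at 0 nM, above 83.9% of all REs, whose median was 2.36 CPM. At 500 nM the median fell to 1.22 CPM, above 24.5% of all REs, while the median of all REs was again 2.36 CPM. At 500 nM 443 of the 590 REs lay under the median of all REs. In counts, the median RE of the set went from 449 per sample to 43. The median log2 difference was -2.38 and the lowest -4.56, and in 91 REs it was -3 or lower. All 590 REs were lower at 500 nM in 7 of 7 replicates, and 583 were lower by at least 1 log2 unit in each of them, both of which follow in large part from the rule. The threshold cut through a continuum. Just inside it were an RE in DOCK3 (chr3:51275028-51275881), one in RPGR (chrX:38279150-38279650) and one 190 kb from MTRR (chr5:8060751-8061567), with -2.0014, -2.0026 and -2.0030. Just outside it were chr3:81931618-81932118 with -1.9994, chr10:95451772-95452272 with -1.9985 and chr11:16001383-16002368 with -1.9983.

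The same 4 REs show what almost full closure looked like in single samples. The RE at PLEKHB1 (chr11:73652246-73652746) went from 25.7 to 58.4 CPM (median 46.9) to 1.27 to 2.52 CPM (median 1.62). The RE in an intron of DIAPH1, a formin that nucleates actin filaments (chr5:141521281-141521781), went from 7.00 to 33.0 CPM (median 26.5) to 0.385 to 1.53 CPM (median 0.546). In these REs and in those at ACTN4 and AGPAT4 the 0 and 500 nM samples did not overlap. They were picked for the lowest difference between 500 and 0 nM, so this follows in large part from the rule. The RE in an intron of ACTN4, an actin cross-linker (chr19:38721937-38722437), had a median of 28.7 CPM at 0 nM and 0.873 CPM at 500 nM. The RE 45.1 kb from AGPAT4 (chr6:161319140-161319640) had medians of 15.2 and 0.577 CPM. The RE without a core, that in ACTN4, thus fell to a median between those of the others.

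**Figure D2:**
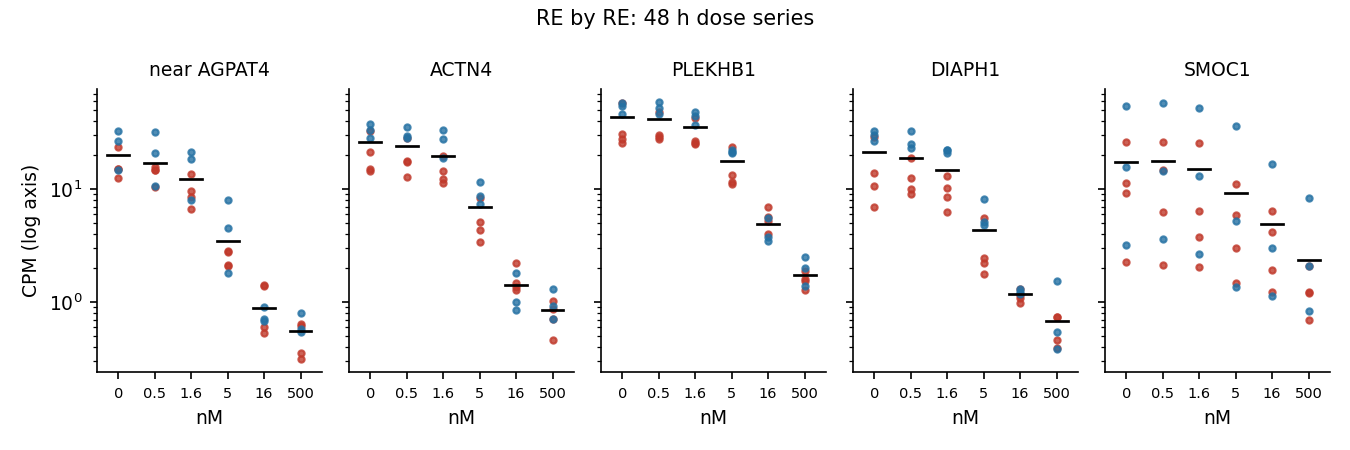
Accessibility of 5 REs at 48 h by dTAGV-1 concentration. Each point is a sample of SOX9-tagged cells (red S9CC13, blue S9CC47), the black bar is the mean of 7 samples, and the vertical axis is CPM on a log scale. At PLEKHB1 the samples at 0 nM lie between 25.7 and 58.4 CPM and those at 500 nM between 1.27 and 2.52 CPM, while in SMOC1 the samples of each concentration spread widely.

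Not every RE of the set reached such low values. The RE with the highest level at 0 nM lay 140 kb from FOXD2 (chr1:47578234-47579188), with 64.0 to 129 CPM (median 102) at 0 nM and 8.63 to 24.3 CPM (median 17.1) at 500 nM. Its residual level at 500 nM was still well above the median RE at 0 nM. The RE 7.41 kb from TRNP1 (chr1:27001731-27002231) closed further, from a median of 82.1 CPM (67.3 to 98.7) to 7.87 CPM (6.94 to 10.6). The intronic RE of KCNK5 (chr6:39193119-39193826) went from a median of 84.7 to 17.3 CPM.

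The next question was how the loss was spread over the concentrations. Summed over the 590 REs, accessibility as a percentage of the 0 nM sample of the same replicate averaged 97.5 ± 10.1% with 0.5 nM and 83.9 ± 8.35% with 1.6 nM (SD, n = 7). With 5 nM it averaged 50.4 ± 6.99%, with 16 nM 27.8 ± 11.0%, and with 500 nM 14.7 ± 2.77%. Steps were taken as the median over the REs of their log2 changes. They were -0.05 ± 0.15 from 0 to 0.5 nM and -0.23 ± 0.12 from 0.5 to 1.6 nM (SD, n = 7). The later steps were -0.76 ± 0.18 from 1.6 to 5 nM, -0.81 ± 0.35 from 5 to 16 nM and -0.58 ± 0.28 from 16 to 500 nM. The largest mean steps thus fell between 51.7% and 8.14% of the SOX9 level, although in S9CC13 R13 and R14 the step from 16 to 500 nM was the largest (-0.86 and -0.95). At 5 nM, with 25.8% of SOX9 left, the set as a whole stood near the middle of its range. Single REs differed in this respect. The median RE kept 95.4% of its 0 nM level with 0.5 nM and 80.2% with 1.6 nM. It kept 44.9% with 5 nM, 22.2% with 16 nM and 12.6% with 500 nM. At 5 nM the extremes were 8.07% and 84.4%, with 385 REs under 50% and 41 under 25%, and at 16 nM 371 REs were under 25%.

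**Figure D3:**
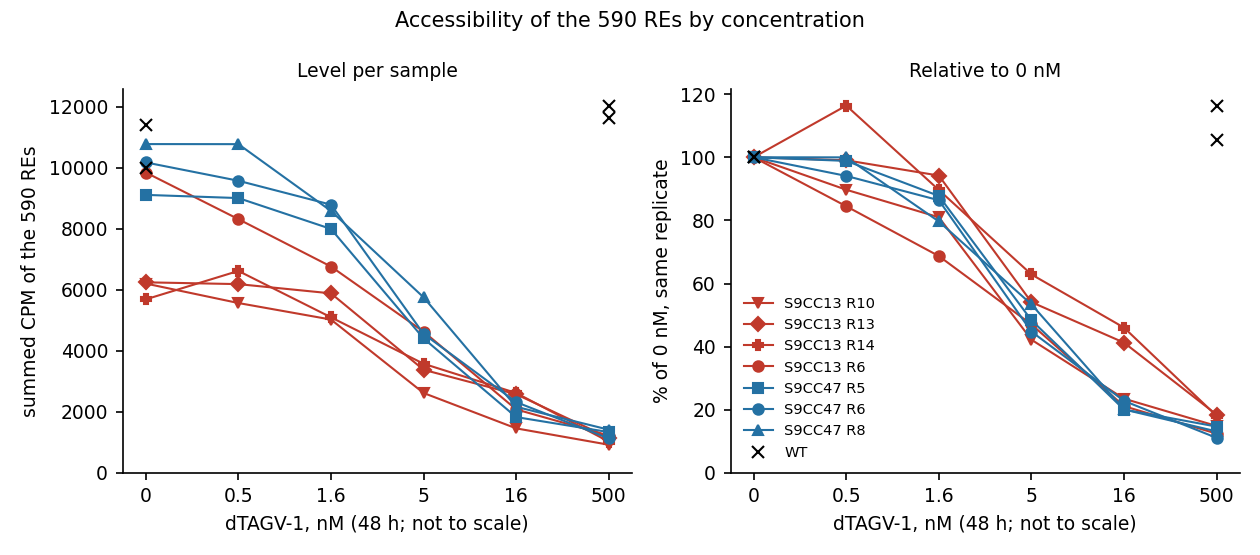
Summed accessibility of the 590 REs in single samples at 48 h. Left, the sum in CPM, and right, the sum as a percentage of the 0 nM sample of the same replicate, by dTAGV-1 concentration. Points are SOX9-tagged samples (red S9CC13, blue S9CC47), joined by a line within a replicate, and black crosses are WT samples. The mean percentage of the tagged samples falls to 50.4% at 5 nM and 14.7% at 500 nM, and the WT samples stay at 106% and 116% at 500 nM.

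The concentrations that the rule did not use were compared with each other by edgeR's quasi-likelihood test with Benjamini-Hochberg adjustment over all REs and a threshold of 0.05, with differentiation as covariate. From 0.5 to 16 nM, 590 of the 590 REs were lower (median log2 fold change -2.10, range -4.47 to -1.06), where 8.15% of all REs were lower and 5.45% higher, and 0 of the 590 were higher. In 545 of the 590 all 7 samples at 16 nM lay under all 7 at 0.5 nM, as in 1.93% of all REs. From 0.5 to 5 nM, 588 of the 590 were lower (median -1.09, range -2.92 to -0.29) against 3.89% of all REs, and 0 were higher against 0.509%. The samples did not overlap in 204 of the 590 and in 0.547% of all REs. Without the covariate 337 of the 590 were lower, against 1363 of all REs. From 0.5 to 1.6 nM, where SOX9 went from 77.9 to 51.7%, 0 of the 590 and 0% of all REs passed the threshold in either direction. At an unadjusted p under 0.05, 420 of the 590 were lower and 0 higher, where 2.38% of all REs were lower and 1.25% higher. DESeq2 called 1 of the 590. The samples did not overlap in 1 of the 590 and in 0.00264% of all REs. With the replicate (clone and differentiation) as block in the same test, 328 of the 590 were lower from 0.5 to 1.6 nM against 0.592% of all REs, and 0 were higher against 0.0885%, with a median log2 fold change of -0.24. Differentiation and replicate differ only in R6, where differentiation as covariate leaves the samples of S9CC13 and S9CC47 unpaired. Without S9CC13 R6 or without S9CC47 R6 they are the same, and 202 and 294 of the 590 were lower (456 and 696 of all REs). Leaving out any other replicate gave 0. The calls at this step thus depended on how the R6 samples were paired.

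In the test without the block the adjusted p-values of this step were tied, and the 3 REs with the lowest unadjusted p are described here. The RE 9.68 kb from the start of SOX10, within POLR2F (chr22:37967856-37968356), had medians of 13.4 CPM at 0.5 nM and 7.60 CPM at 1.6 nM, with ranges of 4.59 to 13.9 and 2.82 to 10.4 CPM that overlapped between replicates. Its log2 fold change was -0.54 ± 0.09 (SE, edgeR adjusted p = 1.00) without the block and -0.55 (adjusted p = 2.49e-08) with it. SOX10 is the closest relative of SOX9 in glial and melanocyte development. The intronic RE of HEYL, a transcriptional repressor of the Notch pathway (chr1:39637267-39638148), had medians of 47.6 and 39.3 CPM (adjusted p = 2.49e-08 with the block). The RE 176 kb from C12orf75 (chr12:105507260-105508097) had medians of 20.1 and 18.0 CPM and a log2 fold change of -0.29 (adjusted p = 4.70e-06 with the block).

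Compared with the 2,396 REs of moderate loss, the 590 REs had covered a smaller share of their log2 change at 1.6 and 5 nM. Of the log2 change from 0.5 to 16 nM, 13.2 ± 8.4% had been reached at 1.6 nM and 57.1 ± 10.9% at 5 nM (SD, n = 7 replicates), against means of 16.9% and 63.7% in the REs of moderate loss. The 590 REs were the lower of the 2 sets in 7 of 7 replicates at both concentrations. A share of log2 change also depends on how deep the fall is, so it need not hold on the scale of CPM. As a percentage of 0 nM, the summed CPM of the 590 averaged 97.5, 83.9, 50.4 and 27.8% with 0.5, 1.6, 5 and 16 nM. In the REs of moderate loss it averaged 98.3, 88.4, 64.9 and 49.1%. The shares are ratios of mean log2 changes over the REs in each replicate. They are a description, and because both sets were cut on the same contrast they were not tested.

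Replicates differed in how far the set had closed at 16 nM. The sum stood at 41.3% of the 0 nM sample in S9CC13 R13 and at 46.0% in S9CC13 R14, and at 20.1 to 23.5% in the other 5 replicates. R10, R13 and R14 also began lower, with sums of 6205, 6246 and 5688 CPM at 0 nM against 9112 to 10778 CPM in the other 4. At 500 nM the 7 replicates lay between 11.1 and 18.5%. The concentration labels of the R14 samples titled 0 and 0.5 nM are the reverse of their titles, which were used here. In R14 the sum at 0.5 nM was 116% of that at 0 nM and 12.2% of the 590 REs were lower, whereas the other 6 replicates stood at 84.5 to 99.98% with 53.6 to 94.6% lower. With these 2 samples exchanged, an alternative chosen after seeing the data, R14 stood at 39.5% at 16 nM. The rule then gave 618 REs, of which 587 were among the 590. Called lower from 0.5 to 1.6, 5 and 16 nM were 0, 588 and 590 of the 590. Over all REs the calls were 0, 5180 and 11538. Between clones, 61 of the 590 REs differed in the change from 0.5 to 16 nM by the interaction term (edgeR, adjusted p under 0.05), all with a larger fall in S9CC47, where 0.0548% of all REs differed in this direction and 0.00066% in the other. The median interaction over the 590 was -0.73 on the log2 scale. Without replicate S9CC13 R13 the count was 2, without R14 it was 5, without S9CC47 R8 it was 3, and without S9CC13 R6 it was 272. The calls in this direction over all REs were 2, 6, 3 and 445. In differentiation R6, which held both clones, the median log2 change from 0.5 to 16 nM was -1.97 in S9CC13 and -1.97 in S9CC47. It was -1.67, -1.20 and -1.29 in R10, R13 and R14 of S9CC13, and -2.17 and -2.29 in R5 and R8 of S9CC47. Outside R6, clone and differentiation cannot be told apart. All 590 REs passed the threshold at 16 nM both in S9CC13 R6 with the S9CC47 replicates (median -2.47) and in R10, R13 and R14 alone (median -1.60). Over all REs 7885 and 7311 were lower in these sets.

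The time course asked how fast the REs closed, in samples that the rule did not use. At 3 h, 589 of the 590 REs were lower than with vehicle (edgeR, adjusted p under 0.05, differentiation as covariate) against 7.43% of all REs, and 0 were higher against 0.912%. The median log2 fold change was -2.46, with a range of -4.84 to -0.55, and over all REs the median was 0.02. In 564 REs both samples at 3 h lay under both vehicle samples (11.4% of all REs). At 24 h, 590 of the 590 were lower against 9.93% of all REs, 0 were higher against 4.7%, and the median was -3.10 (range -6.01 to -1.46). Both samples lay under both vehicle samples in 588 REs at 24 h (14.8% of all REs). Summed accessibility was 22.0 and 23.2% of vehicle at 3 h in R4 and R5, and 13.4 and 16.7% at 24 h. For the median RE 18.6% was left at 3 h and 11.9% at 24 h, and 582 REs were under 50% at 3 h. Without this covariate the counts were 0 at 3 h and 319 at 24 h, where 0 and 969 of all REs were lower.

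**Figure D4:**
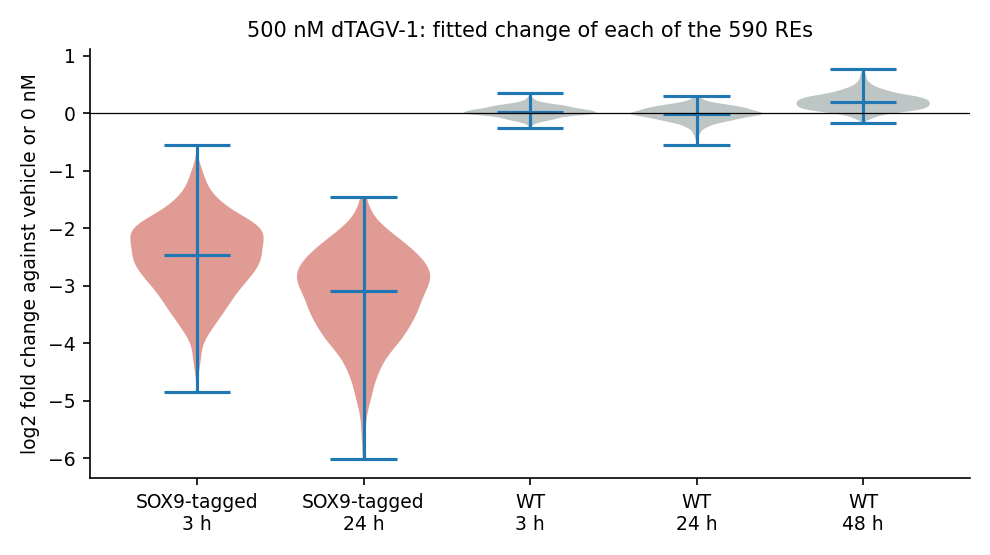
Log2 fold change with 500 nM dTAGV-1 against vehicle (3 h and 24 h) or 0 nM (48 h), as violins over the 590 REs with lines at the lowest, median and highest RE. In SOX9-tagged cells the medians are -2.46 at 3 h and -3.10 at 24 h, and in WT cells the violins lie around 0 at 3 h and 24 h, with a median of 0.19 at 48 h.

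Most of the closure seen at 24 h was already present at 3 h. As a share of the 24 h log2 fold change, the 3 h change had a median of 79.5% (quartiles 72.0 and 86.3%, extremes 21.4 and 122%). It was at least 50% in 586 REs and at least 100% in 13. From 3 h to 24 h, 243 of the 590 were lower again (edgeR, adjusted p under 0.05) against 1.75% of all REs, and 0 were higher against 0.997%, with a median of -0.63. This count was 140 with DESeq2, and 0 without replicate R4 or without the covariate.

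At PLEKHB1 the exact facing pair lies in an RE that had 63.8 and 55.2 CPM with vehicle, 4.35 and 4.49 CPM at 3 h, and 1.80 and 2.37 CPM at 24 h (3 h log2 fold change -3.81 ± 0.12, SE, edgeR adjusted p = 4.13e-12). In WT cells of the same differentiations it stayed at 83.4 and 72.7 CPM with vehicle, 79.2 and 75.5 CPM at 3 h and 84.2 and 70.1 CPM at 24 h. The 2 differentiations were close to each other in this RE at all 3 times. The DIAPH1 RE had 42.5 and 30.4 CPM with vehicle, 4.39 and 2.63 CPM at 3 h and 0.732 and 1.098 CPM at 24 h, with log2 fold changes of -3.45 and -5.37.

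The lowest 3 h value belonged to an RE in an intron of PLD1, a phospholipase (chr3:171776355-171776855). It had 8.23 and 5.74 CPM with vehicle and 0.279 and 0.222 CPM at 3 h (log2 fold change -4.84 ± 0.31, SE, edgeR adjusted p = 3.03e-09). The REs near CNTN3 (-4.40), near KCTD3 (-4.37) and in an intron of TENT5D (-4.30) were also among the lowest, each with under 0.6 CPM in both samples at 3 h. At the other end the promoter RE of RNF157 (chr17:76166911-76167743) closed less far, from 38.3 and 42.9 CPM to 20.9 and 21.3 CPM at 3 h and 14.6 and 15.8 CPM at 24 h. Its log2 fold change was -0.999 ± 0.084 (SE) at 3 h (edgeR adjusted p = 9.34e-08) and -1.46 at 24 h. The RE 75.2 kb from SDK2 (chr17:73719641-73720141) likewise had -0.996 at 3 h (adjusted p = 9.06e-06) and -1.48 at 24 h.

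The 1 RE of the 590 that did not pass the threshold at 3 h lay in an intron of SMOC1, which encodes a secreted calcium-binding matrix protein (chr14:69981109-69981609). It held no SOX core. In R4 it had 58.03 CPM with vehicle, 39.3 at 3 h and 6.59 at 24 h, and in R5 only 1.97, 1.56 and 1.26 CPM. WT cells differed between the differentiations in the same way, with 44.5 and 3.69 CPM with vehicle, 59.9 and 4.56 at 3 h, and 24.9 and 3.46 at 24 h. The log2 fold change in tagged cells was -0.55 ± 0.27 (SE) at 3 h (edgeR adjusted p = 0.303) and -2.57 ± 0.33 at 24 h (adjusted p = 1.16e-05), and from 3 h to 24 h it was -2.02 (adjusted p = 0.00520). In WT cells the R4 sample was also lower at 24 h than with vehicle. At 48 h this RE ranged from 2.27 CPM (S9CC13 R10) to 54.3 CPM (S9CC47 R8) at 0 nM, and R8 was the highest replicate at every concentration. Its level before treatment thus varied widely between differentiations in both genotypes.

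**Figure D5:**
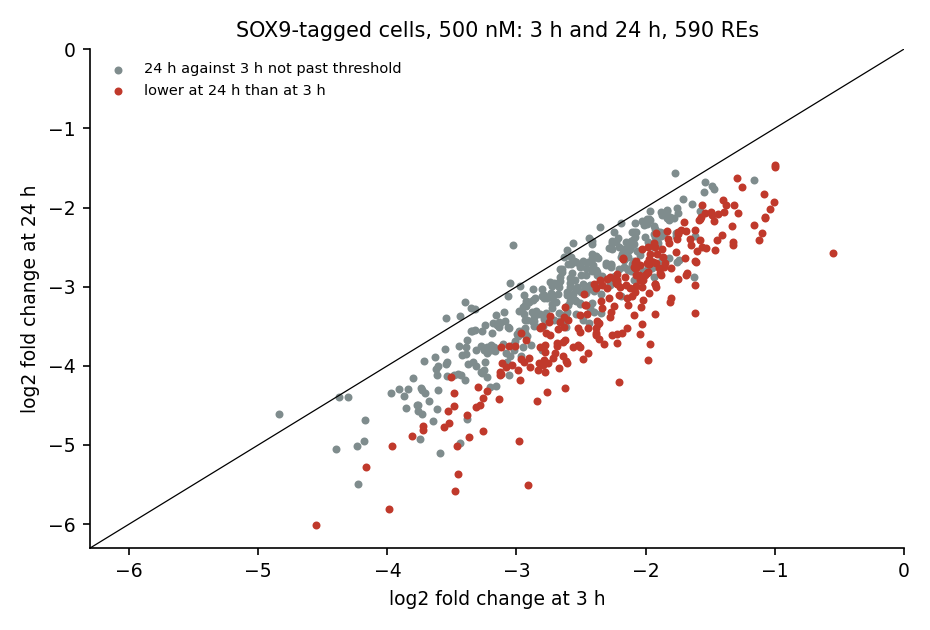
Log2 fold change at 3 h (horizontal axis) against that at 24 h (vertical axis) in SOX9-tagged cells for the 590 REs. Each point is an RE, red where it was lower at 24 h than at 3 h (edgeR adjusted p under 0.05, 243 REs). Nearly all points lie below the line of equal change, with a median 3 h change of 79.5% of the 24 h change.

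The dose series and the time course shared no samples, so that their values for the same REs can be set side by side. Across the 590 REs, the log2 fold change from 0.5 to 16 nM and that at 24 h had a Pearson r of 0.84 (Spearman rho 0.84). For the change from 0.5 to 5 nM and that at 3 h the values were 0.50 and 0.48. REs are not independent replicates, and low-count REs spread more in both, so no p is given. Groups of the REs differed little in their change at 3 h and 24 h. All had passed the same cut on the difference between 500 and 0 nM, so similar depths follow in large part from the rule. Median differences between 500 and 0 nM were -2.41 with a facing pair, -2.37 with a core only and -2.36 without a core. Whether cores matter for the response cannot be read from these groups. The 259 REs with a facing pair of at most 1 mismatch had median log2 fold changes of -2.60 at 3 h and -3.22 at 24 h, the 257 REs with a core but no such pair -2.37 and -2.97, and the 74 REs without a core -2.35 and -2.91. At 5 nM they kept a median of 44.8, 44.3 and 47.03% of their 0 nM level. By position the 3 h medians were -2.67 in the 50 exonic REs, -2.46 in the 74 promoter REs, -2.43 in the 314 intronic REs and -2.48 in the 152 intergenic REs.

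WT cells showed what dTAGV-1 did without a tagged target. At 3 h 0 of the 590 REs passed the threshold by edgeR in either direction, as did 0% of all REs, with 0 lower and 1 higher at an unadjusted p under 0.05 (0.794 and 1.62% of all REs). At 24 h again 0 of the 590 and 0% of all REs passed, with 14 lower and 0 higher at an unadjusted p under 0.05 (1.70 and 1.36% of all REs). DESeq2 called 0 REs at either time. The median RE stood at 104% of vehicle at 3 h and 103% at 24 h. The treatment effect itself differed between tagged and WT cells in 589 of the 590 at 3 h (interaction term, lower in tagged cells, against 5.13% of all REs, and 0 higher against 0.072%). At 24 h it differed in 590 of the 590 (against 6.28%, and 0 higher against 0.45%). Without the covariate these counts were 251 and 380, against 684 and 1587 of all REs. The exception at 3 h was the SMOC1 RE, with an interaction of -0.91 (edgeR adjusted p = 0.316).

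At 48 h, by contrast, accessibility in WT cells with 500 nM was somewhat higher than without. Here 60 of the 590 REs were higher against 0.158% of all REs, and 0 were lower against 0.145% (edgeR, differentiation as covariate). The median log2 fold change was 0.19 (range -0.17 to 0.77), 312 REs were higher and 0 lower at an unadjusted p under 0.05 (4.07 and 4.21% of all REs), and the median RE stood at 114% of its level without dTAGV-1. The largest called rise was in an intronic RE of ACYP2 (chr2:54043910-54044410), with 3.73 and 4.00 CPM at 0 nM and 6.98 and 6.29 CPM at 500 nM in R8 and RSh (log2 fold change 0.77 ± 0.13, SE, edgeR adjusted p = 2.59e-05). The RE 190 kb from MTRR went from 14.2 and 14.5 to 20.9 and 19.4 CPM (0.48, adjusted p = 0.000126), and the DIAPH1 RE rose by 0.43 (adjusted p = 0.000546). None of the 60 calls was kept by DESeq2, without the covariate, or without either differentiation, and each group held 2 samples. The direction was opposite to that in tagged cells in all 60.

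With vehicle alone in the time course, the REs were somewhat less open in tagged than in WT cells. At 48 h without degrader only differentiation R8 held both genotypes, with 1 sample each. There the order was reversed, with sums over the 590 REs of 10778 CPM in S9CC47 and 9993 CPM in WT. In the time course 30 of the 590 were lower in tagged cells against 0.0898% of all REs, and 0 were higher against 0.0106% (edgeR, differentiation as covariate). The median log2 difference was -0.32, and at an unadjusted p under 0.05, 301 were lower and 3 higher (3.66 and 4.19% of all REs). An RE at GJC3 (chr7:99943727-99944227), with 10.7 and 4.57 CPM in tagged and 19.6 and 11.9 CPM in WT cells, was among the 30 (log2 difference -1.17, edgeR adjusted p = 0.00405). The count of 30 became 12 without tagged R5, 16 without WT R5 and 67 without WT R4, and it was 59 with DESeq2 and 0 without the covariate. SOX9 in tagged and WT cells was not measured in these files.

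The genes next to these REs were examined by lists. Because the REs were assigned by distance alone, counts are given beside the 0.390% of all REs that belong to the 590. SOX factors stood above this share, with 7 of the 414 REs nearest to them (1.69%), and glial genes with 4 of 109 (3.67%). Cartilage collagens had 0 of 56 REs, other cartilage matrix genes 0 of 141, melanocyte genes 0 of 131 and osteoblast genes 0 of 185. Neural crest factors had 2 of 744 (0.269%), BMP and TGF-beta genes 2 of 582 (0.344%), FGF genes 2 of 476 (0.420%) and axon guidance genes 4 of 1317 (0.304%). With so few REs in each list, these shares describe the lists and were not tested.

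Among SOX factors, the RE near SOX10 closed furthest. It had 33.8 and 19.4 CPM with vehicle, 1.37 and 1.58 CPM at 3 h and 0.649 and 0.745 CPM at 24 h (3 h log2 fold change -4.17 ± 0.20, SE, edgeR adjusted p = 1.32e-10). In WT cells it held 45.0 and 34.6 CPM with vehicle and 44.1 and 32.9 CPM at 24 h. SOX5 and SOX6 encode the partners of SOX9 in cartilage. An intergenic RE 457 kb from SOX6 (chr11:15884118-15884618) went from 24.7 and 21.1 CPM to 4.56 and 3.82 CPM at 3 h and 2.66 and 1.94 CPM at 24 h (-2.51 at 3 h, adjusted p = 2.69e-10). Intronic REs of SOX5 at chr12:23771165-23771665 and chr12:24020504-24021004 had log2 fold changes of -2.42 and -2.97 at 3 h. An RE of SOX13 (chr1:204084384-204084884) had -1.93. An adjoining pair 117 kb from SOX4 differed more, with -2.18 at chr6:21710969-21711469 and -1.16 at chr6:21710407-21710907. All 7 were lower at 3 h and at 24 h.

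Glial genes with such REs included GJC3 and ERBB3. GJC3, a connexin of myelinating glia, had an RE (chr7:99943727-99944227) that went from 10.7 and 4.57 CPM to 0.790 and 0.445 CPM at 3 h (-3.64) and reached -4.70 at 24 h. The intronic RE of ERBB3, the neuregulin receptor of Schwann cell precursors (chr12:56081524-56082024), had -2.05 and -2.85. Both were lower at 3 h and at 24 h.

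The neural crest factor with such REs was ETS1, which is expressed in cranial crest during delamination. Its introns held a pair, at chr11:128552879-128553379 with 23.7 and 18.1 CPM with vehicle and 1.86 and 1.46 CPM at 3 h, and at chr11:128532536-128533036 with 19.9 and 14.2 CPM and 1.19 and 1.15 CPM. The log2 fold changes at 3 h were -3.71 (edgeR adjusted p = 1.30e-10) and -3.91 (adjusted p = 1.37e-10), and -4.35 and -4.29 at 24 h. In WT cells these REs kept 23.3 and 24.2 CPM, and 17.9 and 17.2 CPM, at 3 h. Both were thus almost closed within 3 h in both differentiations.

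For signalling genes, the intronic RE of TGFB2, a TGF-beta ligand, had -2.23 at 3 h and -2.44 at 24 h, with a difference of -0.21 between the times that did not pass the threshold (edgeR adjusted p = 0.594). The exonic RE of BMPR1B, a BMP receptor, had -2.09 and -3.36 and was lower at 24 h than at 3 h (-1.27, edgeR adjusted p = 0.00727). SPRED1 and SPRY2 encode inhibitors of FGF signalling to MAP kinase. The RE 54.8 kb from SPRED1 (chr15:38197507-38198007) had -3.72 and -4.81, and the one 403 kb from SPRY2 (chr13:79936162-79936662) went from 81.4 and 64.3 CPM to 11.0 and 14.3 CPM at 3 h and 11.5 and 9.71 CPM at 24 h. Axon guidance genes were represented by NRP1, the semaphorin and VEGF co-receptor (-3.24 at 3 h, adjusted p = 5.97e-07), its ligand SEMA3A (-2.95), EFNA5 (-2.37) and SEMA5A (-1.97). Each of these 8 REs was lower at 3 h and at 24 h.

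How the 590 REs lay along the genome was described without a comparison to other REs. The median distance from one to the next was 1278 kb, 35 lay within 10 kb of another and 69 within 100 kb, and they had 543 nearest genes. Of these genes 41 had at least 2 of the REs and 3 had at least 3, namely SLC39A11 (6 of its 50 REs), ZFP36L1 (3 of 33) and ASIC2 (3 of 41). The 6 REs nearest to SLC39A11 are also those nearest to SOX9 among the 590, downstream of it on chromosome 17. SOX9 starts at chr17:72121020, and no RE whose nearest gene is SOX9 itself was in the set.

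The REs downstream of SOX9 lay 451 kb (chr17:72571888-72572388), 494 kb (chr17:72614974-72615769), 502 kb (the adjoining chr17:72622968-72623468 and chr17:72623496-72623996), 540 kb (chr17:72661297-72661797) and 922 kb (chr17:73043007-73043507) from its start. The first went from 17.9 and 10.1 CPM with vehicle to 1.39 and 1.02 CPM at 3 h and 0.400 and 0.647 CPM at 24 h (log2 fold change -3.56 and -4.77). In the adjoining pair the RE at 72622968 closed faster, with -2.38 at 3 h, than its neighbour at 72623496 with -1.16, and they reached -3.58 and -2.22 at 24 h. The neighbour had 20.0 CPM with vehicle in R4 and 3.46 CPM in R5, so that its values differed between differentiations. The other 3 had -2.46, -3.06 and -2.15 at 3 h. All 6 were lower at both times, and from 0.5 to 5 nM their log2 fold changes ran from -2.05 to -1.09. The 3 REs nearest to ZFP36L1 all lay in RAD51B and had -2.08, -2.78 and -1.78 at 3 h, and the 3 in introns of ASIC2 had -1.61, -2.98 and -2.67.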

How the data were processed

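ATAC-seq was measured in 58 samples. Per the study's methods, the authors trimmed reads with skewer, aligned them to hg38, dropped PCR duplicates, poorly mapped reads and those of the mitochondrial genome, and merged MACS2 summits seen in at least 3 differentiations or lines into 1 set of REs. Bowtie2 2.4.1, SAMtools 1.10, deepTools 3.5.0, MACS2 2.2.7.1 and bedtools are named in the submitters' processing notes. The deposited values are raw counts of reads per RE, not normalized, with replicates kept apart. The counting tool is not given in the sources used here. Because 1 set of REs was counted everywhere, levels do not depend on peak calls in single samples, but sites open in few differentiations were not counted. Starts were taken as counted from 0, and 0 REs ran past a chromosome end of the hg38 sequence used here. Context and nearest genes came from GENCODE release 44.

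The members, gene lists and rules were chosen with earlier results of these data known. Regions were named by rule: those with the lowest difference between 500 and 0 nM, the highest level at 0 nM, the lowest and highest change at 3 h, the lowest change at 24 h in each gene list, the lowest p at 1.6 nM and in WT cells, exact facing pairs, the threshold, and genes with the most members. Others were named after their values were seen, namely the further members of the gene lists. Some REs that the rule names are not reported here.

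Counts were tested over all 151,457 REs with edgeR 4.0.16 (R 4.3.3, TMM, quasi-likelihood, no filter, Benjamini-Hochberg, threshold 0.05). Covariates were differentiation at 48 h and in the time course, where each test of 1 genotype used its 6 samples, the interactions used all 12 samples with genotype and differentiation as blocks, and the clone interaction used the replicate. Standard errors came from the F statistic. Scripts were tested on simulated counts. Alternatives were DESeq2 1.42.0, column sums, a filter on low counts, the fit with or without a block, and leaving out each replicate. Totals of 22.91 to 81.04 M counts gave a median of 449 counts per member and sample at 0 nM, and intervals cover counting error only.

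Samples at 48 h that share a replicate name come from 1 clone and differentiation. Their deviations from the group means correlated across 84,124 REs (mean r 0.799 for 0.5 and 16 nM, 0.750 for 0.5 and 5 nM with a lowest of 0.218, and 0.843 for 0.5 and 1.6 nM). They were taken as paired in the percentages and in the fits with a replicate block. The main tests between concentrations used differentiation instead, which does not pair the samples of each clone in R6. Apart from clones and differentiations nothing in the labels separates cultures, so p-values measure the spread between these samples of a single cell line. In each of the 134 pairs of samples within a group, counts differed by more than sampling noise (reduced chi-square of at least 2.60). For S9CC13 R14 the concentration labels at 0 and 0.5 nM are the reverse of the titles and SOX9 levels, and titles were used. Time-course columns of tagged R5 name S9CC47 while titles name S9CC13, and differentiation, treatment and time decided the match.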

Additional observations from a re-analysis of the deposited data

Results flagged for a closer look

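Among 100 values tested for a sample far from the others of its group, 6 were flagged, where chance flags about 1 in 20 groups. In 4 of the 6 the sample was S9CC47 R8 in the SMOC1 RE, with 58.3 CPM at 0.5 nM, 36.6 CPM at 5 nM, 16.6 CPM at 16 nM and 8.33 CPM at 500 nM, each the highest of 7 samples. The RE was also high in WT differentiations R4 and R8, so the high level followed the differentiation in these samples, and the reason was not tested. The other 2 were the DIAPH1 RE at 500 nM in S9CC47 R5 (1.53 CPM, highest of 7) and the ST6GALNAC3 RE at 0.5 nM in S9CC13 R10 (46.1 CPM, lowest of 7).

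Effects of treatment differed between tagged and WT cells, by the interaction term, in 589 of the REs at 3 h and in 590 at 24 h. The change from 0.5 to 16 nM differed between clones in 61 REs. The last count rested on single replicates, being 2 without S9CC13 R13 and 272 without S9CC13 R6.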

How the results depend on the processing

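With the replicate as block the count of members called from 0.5 to 1.6 nM was 328 in place of 0, and the block moved no other count of members past 1.5 times. Over all REs it raised the calls from 5894 lower and 771 higher to 9010 and 3034 at 5 nM, and from 12337 and 8261 to 17681 and 15914 at 16 nM. The samples of R10, R13 and R14 alone, chosen after seeing the data, gave 3. With no replicate block in the tests that carry differentiation, the counts were 0 at 3 h, 319 at 24 h, 0 from 3 to 24 h, 0 in WT cells at 48 h, 251 and 380 for the interactions at 3 and 24 h, 0 for vehicle and 337 at 5 nM. With DESeq2 they were 140 from 3 to 24 h, 0 in WT cells at 48 h, 59 for vehicle, 1 at 1.6 nM and 11 between clones. Column sums in place of TMM gave 19 for vehicle.

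Leaving out 1 replicate at a time gave 0 to 212 from 3 to 24 h (0 without S9CC13 R4), 0 to 0 in WT cells at 48 h (without R8 or RSh), 12 to 67 for vehicle (12 without S9CC13 R5, 16 without WT R5, 50 without S9CC13 R4, 67 without WT R4), 0 to 294 at 1.6 nM (202 without S9CC13 R6, 294 without S9CC47 R6) and 2 to 272 between clones (2 without S9CC13 R13, 3 without S9CC47 R8, 5 without S9CC13 R14, 272 without S9CC13 R6). At 1.6 nM the fits without an R6 replicate are those in which differentiation and replicate are the same block. Where a group was left with 1 sample, other time-course samples joined the test and the lone sample was assumed to vary like them. The counts at 3 h (587 to 589), 24 h (589 to 590), 5 nM (586 to 590) and 16 nM (590) stayed within 1.5 times.

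The rule itself gave 351 members with a pseudocount of 1, 1391 at a threshold of -1.5, 235 at -2.5, and 531 to 677 when 1 replicate was left out. The core ACAAT was present in 73.6% of the REs, in 68.1% of those with a moderate loss and in 50.5% of all REs. The facing pair with 1 mismatch, added after seeing the data, was present in 43.9%. The filter on low counts removed 0 REs. No count that passed the threshold changed direction in these settings. The median log2 fold change of the members in WT cells, near 0, did change sign. At 24 h it was -0.01, but 0.07 without WT R5 (15 lower and 21 higher at an unadjusted p under 0.05) and 0.03 with column sums. Exchanging the R14 samples of 0 and 0.5 nM gave 76 between clones, and the other counts stayed within 1.5 times. The cause of these changes was not tested. Depth limits the REs under 1 CPM at 500 nM and the groups of 2 samples most.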
